A study of Mus musculus with 6 samples.

Results

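The fatty acid elongases and desaturases were described here as a set of 10 genes out of 45320 measured identifiers, in brown fat of C57BL/6 mice. The set was taken by name and comprised 6 elongases (Elovl1, Elovl3, Elovl4, Elovl5, Elovl6 and Elovl7), 2 stearoyl-CoA desaturases (Scd1 and Scd2) and 2 front-end desaturases (Fads1 and Fads2). All 10 had an Ensembl identifier in the tables. Every mouse had been put on a calorie-rich diet, high in sugar and fat, at 4 weeks of age and had eaten it for 4 weeks before the groups were formed. The untreated group then stayed on that diet alone (samples 13, 14 and 15). The treated group had RO5508887, an experimental small molecule that inhibits the protease BACE1, added to the same diet (samples 17, 33 and 35). Samples 33 and 35 had the same value for every gene, so they entered as 1 library, treated 33/35, and 3 untreated libraries were set against 2 treated ones. The labels do not state whether samples were single animals or pools, and p-values here therefore reflect the spread between these libraries, which may be technical.

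Long-chain fatty acids are lengthened in the endoplasmic reticulum by a repeating cycle of reactions, and an ELOVL enzyme carries out the first, rate-setting condensation of each round. ELOVL6 turns palmitate into stearate, ELOVL5 extends polyunsaturated chains, and ELOVL1, ELOVL3 and ELOVL7 extend saturated and monounsaturated chains. SCD enzymes then place a double bond into palmitate or stearate to give palmitoleate and oleate, common fatty acids of stored fat, whereas FADS1 and FADS2 desaturate the polyunsaturated series. In brown fat, Elovl3 is known as a gene that cold strongly induces, and Scd1 as one of the most abundant lipogenic transcripts of adipocytes. Elovl4 is best known from retina and skin.

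The levels below are FPKM, which are already scaled to transcript length and so can be ranked between genes. The genome gave 5 of the 10 genes a place on chromosome 19 (GRCm38). There, Scd1 to Scd4 lie together from 44203269 to 44407879, a stretch of 205 kb, and Fads1 to Fads3 from 10041569 to 10196877, a stretch of 155 kb. Elovl3 lies on the same chromosome at 46131897 to 46135694. Elovl6 is on chromosome 3 (129532355 to 129638495), Elovl1 on chromosome 4 (118428093 to 118432953), Elovl7 on chromosome 13 (108214404 to 108285683), and Elovl4 (83778692 to 83806277) and Elovl5 (77917364 to 77984519) on chromosome 9.

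Promoter sequences are shown for 3 elongases whose transcripts varied widely (Elovl6), moderately (Elovl5) and little (Elovl1) between the libraries. Each is the window from 250 to 32 bases before the RefSeq start (GRCm38.p6, all on the plus strand), and capitals mark matches to the motifs searched. The windows are chr3:129532136-129532354 for Elovl6, chr9:77917115-77917333 for Elovl5 and chr4:118427843-118428061 for the upstream of the 2 Elovl1 starts in the table.
Elovl6: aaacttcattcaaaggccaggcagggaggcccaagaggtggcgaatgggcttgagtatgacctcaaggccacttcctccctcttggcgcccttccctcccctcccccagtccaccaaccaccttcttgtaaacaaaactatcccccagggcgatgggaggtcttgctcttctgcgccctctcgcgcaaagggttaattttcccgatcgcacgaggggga
Elovl5: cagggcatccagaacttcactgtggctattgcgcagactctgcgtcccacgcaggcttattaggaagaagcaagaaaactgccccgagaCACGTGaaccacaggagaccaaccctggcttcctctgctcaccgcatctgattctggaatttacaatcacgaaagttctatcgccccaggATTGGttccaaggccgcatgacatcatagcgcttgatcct
Elovl1: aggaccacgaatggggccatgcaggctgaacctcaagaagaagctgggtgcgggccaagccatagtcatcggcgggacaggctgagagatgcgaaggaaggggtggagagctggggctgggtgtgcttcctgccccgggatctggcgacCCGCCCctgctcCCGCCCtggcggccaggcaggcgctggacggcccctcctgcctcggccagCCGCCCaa
The letters searched, on both strands, were CACGTG for the E-box, CCAAT for the CCAAT box, GGGCGG for the GC box, TCACNCCAC for one form of the sterol regulatory element and TATAAA for the TATA box. The Elovl5 window held 1 E-box and 1 CCAAT box, the latter read on the minus strand, and the Elovl1 window held 3 GC boxes. None of these letters occurred in the Elovl6 window. Over 32851 promoter windows of the same 219 bases, the E-box letters occurred in 4.97%, the CCAAT box in 30.9%, the GC box in 28.3%, the sterol regulatory element in 0.907% and the TATA box in 9.92%. A match is one of letters only. Bases nearer to the start than the window were not searched, so a motif there, such as a TATA box, would be missed. In total 6 of the 10 members had a window in the table, and Elovl3, Scd1, Scd2 and Fads1 had no entry. The Elovl6 window overlaps an exon of the antisense gene Gm35986.

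The libraries differed in tissue content before any comparison of the drug. The brown fat gene Ucp1 measured 227 FPKM in untreated 14 and 1119 to 1912 FPKM in the other libraries. Skeletal muscle markers, 30 genes with an identifier, made up 8.77% of all FPKM, mitochondrially encoded genes aside, in untreated 14. Their share was 3.64% in treated 17 and 1.55% in treated 33/35, but only 0.0430% and 0.0417% in untreated 13 and 15. All 29 tested muscle markers were highest in untreated 14. Adipocyte identity genes, such as Adipoq, were lower in untreated 14 than the mean of untreated 13 and 15 for 18 of 20 genes, at a median ratio of 0.405. In whole tissue, fewer cells of a type and less RNA per cell cannot be told apart.

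Scd1 stood far above the rest of the family. It measured 3370, 1760 and 3628 FPKM in untreated libraries 13, 14 and 15, against 2835 and 3220 FPKM in treated libraries 17 and 33/35. Untreated 14 was the low library, and the other 4 lay within a narrow band. Its mean of 2963 FPKM exceeded that of 99.9% of the tested protein-coding genes. Among the 4 Scd genes it supplied 95.8% to 97.9% of the summed FPKM in every library.

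**Figure D1:**
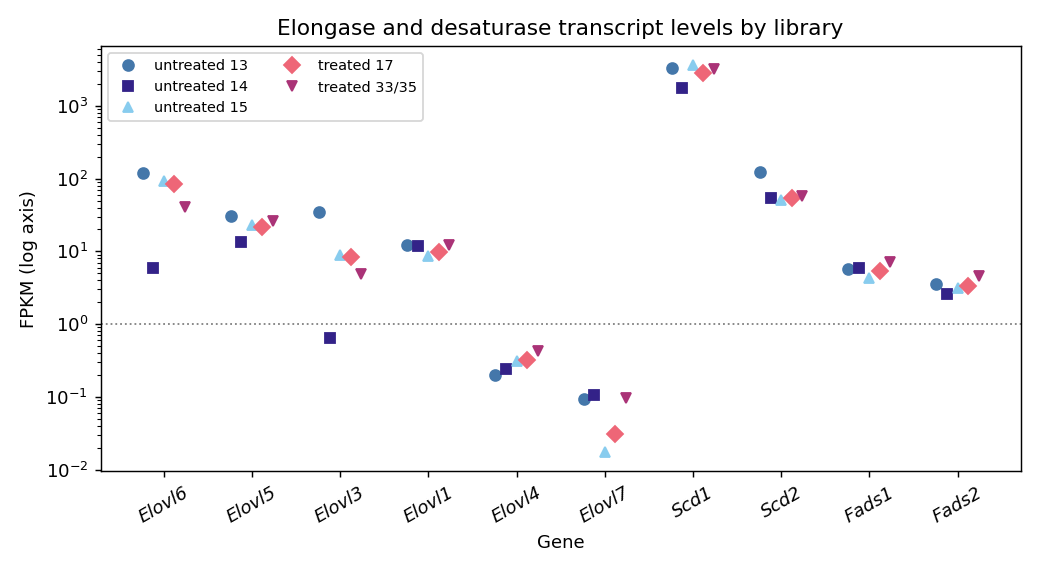
FPKM (log axis) of the 10 genes, with 1 point per library and a dotted line at 1 FPKM, the mean needed for testing. Scd1 lies between 1760 and 3628 FPKM, Elovl3 spreads from 0.643 to 35.2 FPKM, and Elovl4 and Elovl7 stay below 0.5 FPKM.

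Below Scd1, Elovl6 and Scd2 had nearly equal means, 68.0 and 67.6 FPKM. Their order changed from library to library, Elovl6 being the higher in 2 of 5. Elovl5 followed at 22.9 FPKM, below Scd2 in all 5 libraries. Elovl3 and Elovl1 averaged 11.6 and 10.9 FPKM, and again Elovl3 was the higher in only 2 of 5 libraries. Fads1 at 5.67 FPKM was below Elovl1 in all 5, and Fads2 at 3.45 FPKM below Fads1 in all 5. Elovl4 and Elovl7 averaged 0.301 and 0.0680 FPKM and fell under the filter, so that 8 of the 10 genes were tested. Elovl5 was above Elovl3 in 4 of 5 libraries. The pairs Elovl6 with Scd2 and Elovl3 with Elovl1 did not differ beyond their spread, whereas every other step of the order held in at least 4 libraries.

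Elovl3, which makes saturated and monounsaturated chains for the brown fat lipid store, varied most. It measured 35.2 FPKM in untreated 13, 0.643 FPKM in untreated 14 and 9.06 FPKM in untreated 15, against 8.31 FPKM in treated 17 and 4.89 FPKM in treated 33/35. Both treated values lay inside the untreated range, which ran across 54.8-fold. The SD of its log2(FPKM + 0.5) over the 5 libraries was 1.79, larger than in 96.3% of tested genes, whose median SD was 0.278. The 3' end of Elovl3 overlaps the opposite-strand gene Pitx3 by 10 bases. Pitx3 reached at most 2.81 FPKM.

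Elovl6, the elongase of palmitate, came next in spread. Its values were 118, 5.98 and 92.0 FPKM in untreated libraries 13, 14 and 15, against 83.2 and 40.6 FPKM in treated libraries 17 and 33/35. Untreated 14 was the lowest and treated 33/35 the next lowest, a 19.8-fold range overall. Its SD on the log2 scale was 1.71, larger than in 96.0% of tested genes. The promoter window printed for Elovl6 holds none of the motifs searched, and neither does that of Elovl4. The window of Elovl5, which varied over 2.24-fold, holds an E-box and a CCAAT box. These letters occurred in 4.97% and 30.9% of all promoter windows. Any link between the letters and the spread was not tested.

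The remaining members moved much less. Elovl5 measured 30.4, 13.6 and 22.7 FPKM in untreated libraries 13, 14 and 15, against 21.9 and 25.8 FPKM in treated libraries 17 and 33/35. The lowest value was again that of untreated 14. Scd2, the desaturase best known from brain and developing fat, measured 123 FPKM in untreated 13 and 50.7 to 57.0 FPKM in the other 4 libraries. Here untreated 13 alone was high, and untreated 14 at 53.6 FPKM was level with the rest. Elovl1, which makes very long saturated chains for sphingolipids, ran from 8.53 to 12.2 FPKM with its lowest value in untreated 15. Fads1 ran from 4.25 (untreated 15) to 7.15 FPKM (treated 33/35), and Fads2 from 2.62 (untreated 14) to 4.58 FPKM (treated 33/35).

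Untreated 14 divided the family. Of the 8 tested members, 5 were lowest in that library (Elovl3, Elovl5, Elovl6, Scd1 and Fads2), beside 6010 of all 13527 tested genes. Elovl3 was 34.5 times and Elovl6 17.6 times lower there than the mean of untreated 13 and 15, whereas Elovl5 and Scd1 were 1.95 and 1.99 times lower. Scd2 was 1.62 and Fads2 1.28 times lower. Elovl1 and Fads1 were at 1.14 and 1.19 times that mean. Across the genome the median ratio was 0.935. Summed muscle marker levels were highest in the same library, and the part of muscle in these differences was not tested.

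Set against the adipocyte genes of the same library, Elovl3 and Elovl6 remained low in untreated 14, and they were not alone in this. Before any centring, the adipocyte identity list was at a median 0.405 of the mean of untreated 13 and 15. Brown adipocyte markers, Elovl3 aside, were lower still at a median of 0.209, and the lipogenic supply genes described below at 0.179. After each library was centred on its median over the adipocyte identity list, the log2 difference of untreated 14 from the mean of untreated 13 and 15 was -2.83 for both Elovl3 and Elovl6. For Scd1 and Elovl5 the centred differences were 0.20 and 0.26, and for Scd2 0.63. Elovl1, Fads1 and Fads2 lay 1.38, 1.43 and 0.88 above, but before centring their differences were 0.20, 0.25 and -0.31. The centring raised this difference by the same amount for every gene. Before it, the median ratio of all tested genes was 0.935, so a typical gene also lies above after it. These are single-library differences with no test.

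**Figure D2:**
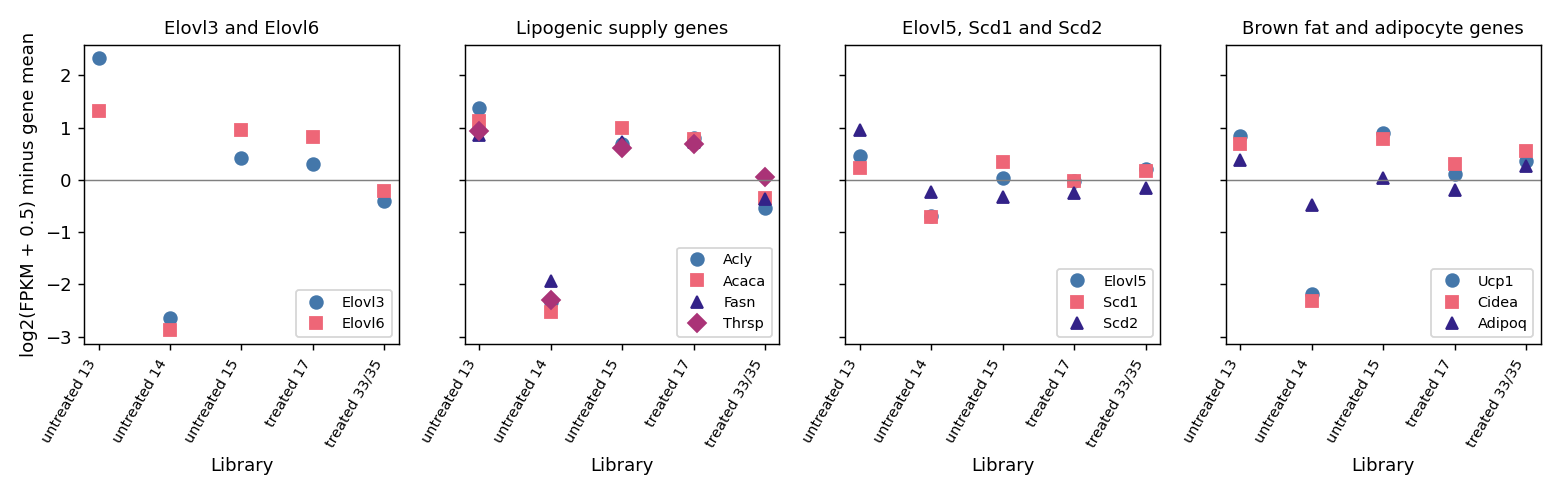
Difference of log2(FPKM + 0.5) from each gene's mean over the 5 libraries, for Elovl3 and Elovl6, lipogenic supply genes, Elovl5, Scd1 and Scd2, and brown fat and adipocyte genes. Elovl3, Elovl6, Acly, Acaca, Fasn and Scd2 lie below their means in both untreated 14 and treated 33/35. The supply gene Thrsp lies below its mean in untreated 14 but slightly above it in treated 33/35. Ucp1, Cidea, Adipoq, Elovl5 and Scd1 also lie above theirs in treated 33/35.

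A further split appeared between libraries of one group. Untreated 13 and 15 were close to each other for most genes, with a median difference of 1.11-fold and a 95th percentile of 1.7-fold on the log2(FPKM + 0.5) scale. Elovl3 differed by 3.89-fold between them in FPKM and Scd2 by 2.43-fold, both higher in untreated 13. On the log2 scale these differences were larger than in 99.1% and 98.2% of tested genes. Scd1 in untreated 13 was at 0.929 of its level in untreated 15. Red cell markers summed to 3711 FPKM in untreated 13 and 1389 FPKM in untreated 15, higher for 5 of 5 genes, and fibroblast markers to 712 and 266 FPKM, higher for 7 of 7. Schwann cell markers, nerve being a tissue that expresses Scd2, were higher in untreated 13 for 5 of 6 tested genes. Their sums of 265 and 235 FPKM came mostly from S100b (180 and 187 FPKM), which fat also expresses. Macrophage markers summed to 215 and 141 FPKM and were higher for 9 of 9, beside 8061 of the 13527 tested genes. The part of these cell types in the difference was not tested.

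Skin can carry Elovl3 and Scd3 through its sebaceous glands, so its markers were checked. Krt5, Krt15 and Awat1 were listed at 0 in all 5 libraries, and Krt14 was listed at 0 in 4 and at 0.105 FPKM in untreated 14. Other genes of the list were detected in every library, among them Krt79 (3.50 to 8.41 FPKM), Krt10 (0.955 to 1.25 FPKM), Soat1 (0.832 to 2.85 FPKM) and the sebaceous gene Awat2 (0.138 to 0.409 FPKM). The summed level of the 11 genes ran from 206 to 535 FPKM and came mainly from Mgst1 (198 to 524 FPKM), a glutathione transferase that fat also expresses. The part of skin in the levels of Elovl3 and Scd3 was not tested.

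Within the treated group, Elovl6 was 2.05 times and Elovl3 1.7 times higher in treated 17 than in treated 33/35. The difference of Elovl6 on the log2 scale was larger than in 95.7% of tested genes, and that of Elovl3 larger than in 91.8%. The other 6 tested members were higher in treated 33/35, by ratios of treated 17 to treated 33/35 from 0.731 (Fads2) to 0.936 (Scd2). Muscle markers made up 3.64% of FPKM in treated 17 and 1.55% in treated 33/35, and their part in these differences was not tested.

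**Figure D3:**
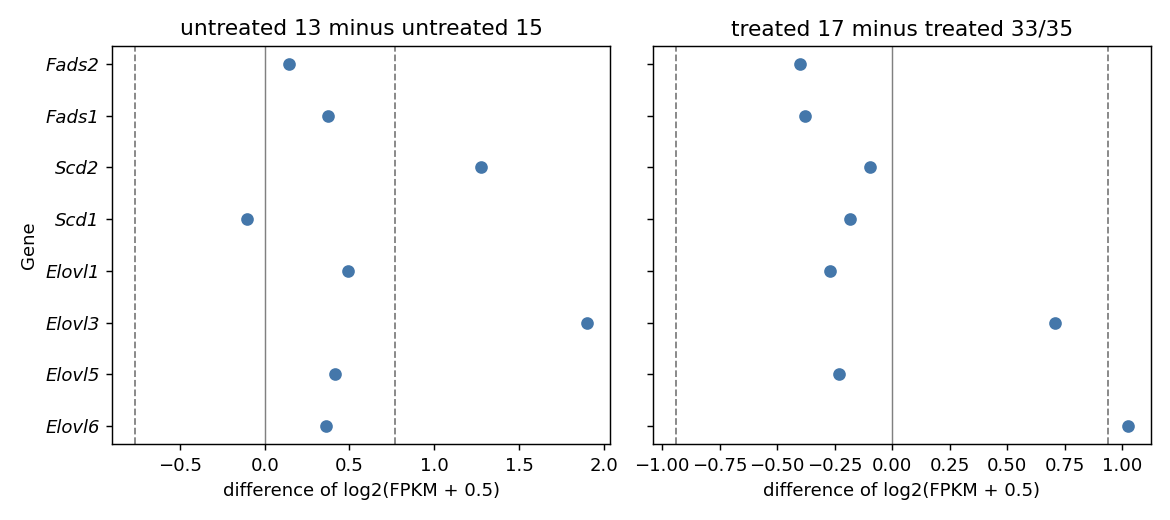
Difference of log2(FPKM + 0.5) for the 8 tested members, untreated 13 minus untreated 15 (left) and treated 17 minus treated 33/35 (right), with dashed lines at the 95th percentile of the absolute difference over all tested genes. Elovl3 and Scd2 lie beyond the line on the left and Elovl6 alone on the right.

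The genes that feed carbon into the elongases had the same order of the treated libraries as Elovl6. Lipogenic supply genes, which make malonyl-CoA, palmitate and the reducing power for them, were lower in treated 33/35 than in treated 17 for 8 of 8 genes. Their median ratio was 0.611, beside 1.04 for all tested genes and 1.18 for the adipocyte identity list. Acaca, the acetyl-CoA carboxylase that makes malonyl-CoA, measured 384, 30.2 and 353 FPKM in untreated libraries 13, 14 and 15, against 303 and 139 FPKM in treated libraries 17 and 33/35. Acly, which makes cytosolic acetyl-CoA from citrate, measured 567, 42.8 and 348 FPKM and then 380 and 151 FPKM. For both genes untreated 14 was lowest and treated 33/35 next, as for Elovl6. Fasn, the fatty acid synthase, chosen after its values were seen, measured 1322, 191 and 1200 FPKM and then 1198 and 562 FPKM.

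Genes with the most similar profiles were sought for Elovl3 and Scd1. Likeness was the Euclidean distance between centred log2(FPKM + 0.5) profiles over the 5 libraries, among 11329 named protein-coding genes outside the 10 members. For Elovl3 the 5 nearest of these were Acly (distance 1.15), Gk, Pygl, Acaca and Acot11 (1.43). The distance between the members Elovl3 and Elovl6 was 1.29. Elovl6, examined in the same way after its values were seen, had Pygl (0.320), the glycogen phosphorylase best known from liver, Acot11, Acaca, Aspg and Acly (0.696) nearest. The nearest of these genes to Elovl3 was thus farther away than all 5 of those nearest to Elovl6. Scd1 had many near neighbours, the nearest 5 (Sirt6, Fbxl6, Hoxa5, Cox6b1 and Nxt2) all at 0.045 to 0.046. With so few libraries a near profile is a description only.

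The genes listed as lipogenic regulators were mostly low in untreated 14. This list shares Pparg, Ppargc1a and Prdm16 with the brown adipocyte markers. Of 13 tested regulators, 11 were lowest there, and 5 were lower in treated 33/35 than in treated 17, beside 6010 and 5433 of all 13527 tested genes. Srebf1, whose product SREBP1 activates lipogenic genes, measured 129, 61.5 and 102 FPKM in untreated libraries 13, 14 and 15, against 117 and 104 FPKM in treated libraries 17 and 33/35. Mlxipl, which encodes ChREBP, measured 131, 61.0 and 135 FPKM and then 109 and 78.8 FPKM. The widest spreads were those of the nuclear receptors Ppara (18.7 to 112 FPKM) and Pparg (33.5 to 197 FPKM), whose lowest values were in untreated 14 and whose treated 33/35 values exceeded those of treated 17.

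The partner enzymes of elongation and desaturation gave mixed profiles. Hsd17b12, the ketoreductase of the cycle, measured 191, 42.6 and 164 FPKM in untreated libraries 13, 14 and 15, against 115 and 119 FPKM in treated libraries 17 and 33/35. The dehydratase Hacd1, which is abundant in muscle and was picked after its values were seen, ran the other way with 37.3 FPKM in untreated 14 and 16.4 to 21.5 FPKM elsewhere. Tecrl, a relative of the reductase Tecr known from striated muscle, was listed at 0 in untreated 13 and 15 and measured 5.08, 0.678 and 0.706 FPKM in untreated 14, treated 17 and treated 33/35. Among the cytochrome b5 electron donors, Cyb5b was lowest in untreated 14 (44.2 FPKM against 77.5 to 105 FPKM), and Cyb5r1 highest there (52.8 FPKM against 21.2 to 32.4 FPKM). Cyb5r2, of the same list, averaged under 1 FPKM and was not tested.

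Ratios between members were also taken within each library, the folds from FPKM and the tests from log2(FPKM + 0.5). Scd1 exceeded Scd2 by 27.3, 32.9 and 71.6 times in untreated 13, 14 and 15 and by 53.1 and 56.5 times in treated 17 and 33/35. Both treated ratios lay inside the untreated range. The log2 ratio averaged 5.31 ± 0.735 (SD, n = 3) without and 5.76 ± 0.0634 (SD, n = 2) with the drug, a difference of 0.45 (exact permutation test, two-sided p = 0.6). Elovl6 exceeded Elovl3 by 9.30, 10.2, 10.01 and 8.31 times in untreated 14 and 15 and treated 17 and 33/35, but by only 3.35 times in untreated 13. The difference of this log2 ratio was 0.59 (exact permutation test, two-sided p = 0.6). Fads1 exceeded Fads2 by 1.34 to 2.26 times, with a difference of the log2 ratio of -0.07 (exact permutation test, two-sided p = 1). The smallest p that 2 libraries against 3 can give is 0.2. Adjusted over these 3 ratios, the permutation p-values were 0.9, 0.9 and 1.

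The drug comparison asked whether adding RO5508887 to the diet went with other levels of these genes. Of the 8 tested members, 0 were called higher and 0 lower by limma, where 0.0296% of all tested genes were called higher and 0.0148% lower. By unadjusted p, 0 members and 125 of the 13527 genes were under 0.05. The treated pair exceeded the whole untreated range in 0 of the 8 members, beside 5.50% of tested genes, and lay below it in 0, beside 3.18%. By mean log2 level 6 members were higher and 2 lower in the treated libraries, but 5 and 3 when centred on the median gene, 2 and 6 when centred on the adipocyte list, and 3 and 5 without untreated 14. The members' median difference was 0.14, beside 0.06 for all tested genes, of which 8704 were higher and 4823 lower. Centring on the adipocyte list moved the median of all genes to -0.21.

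For Elovl3 the untreated mean was 15.0 ± 18.0 FPKM (SD, n = 3) and the treated mean 6.60 ± 2.42 FPKM (SD, n = 2). On the log2 scale the fold change was -0.09 (limma, SE 1.51, 95% interval -4.03 to 3.86, adjusted p = 1). The FPKM means put the treated group at 0.440 of the untreated one with untreated 13 far above the rest, while on the log2 scale untreated 13 and 14 lie on either side of the treated libraries. Elovl6 averaged 72.0 ± 58.7 and 61.9 ± 30.1 FPKM, with a log2 fold change of 0.50 (limma, SE 1.42, 95% interval -3.21 to 4.22, adjusted p = 1). Both intervals hold changes of several fold in either direction, so these data do not show that the levels were alike.

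The steadier members had narrower intervals. Scd1 averaged 2919 ± 1012 FPKM (SD, n = 3) and 3027 ± 272 FPKM (SD, n = 2), a log2 fold change of 0.12 (SE 0.39, 95% interval -0.91 to 1.14). Scd2 had a log2 fold change of -0.33 (95% interval -1.50 to 0.84), Elovl5 of 0.17 (-0.80 to 1.14) and Elovl1 of 0.03 (-0.54 to 0.61). For Fads1, at 5.27 ± 0.892 and 6.27 ± 1.25 FPKM, it was 0.23 (95% interval -0.35 to 0.81), and for Fads2, at 3.11 ± 0.469 and 3.97 ± 0.873 FPKM, 0.30 (-0.27 to 0.87). By limma the adjusted p was 1 for all 6. When the mean log2 muscle marker level entered as a covariate, Scd1 was called higher, at 0.56 on the log2 scale (limma, SE 0.08, adjusted p = 0.0223), one of 1455 genes called higher in that fit. With the summed FPKM of the muscle markers as the covariate instead, Scd1 was at 0.085 (limma, SE 0.077, adjusted p = 0.831) and 0 members were called.

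**Figure D4:**
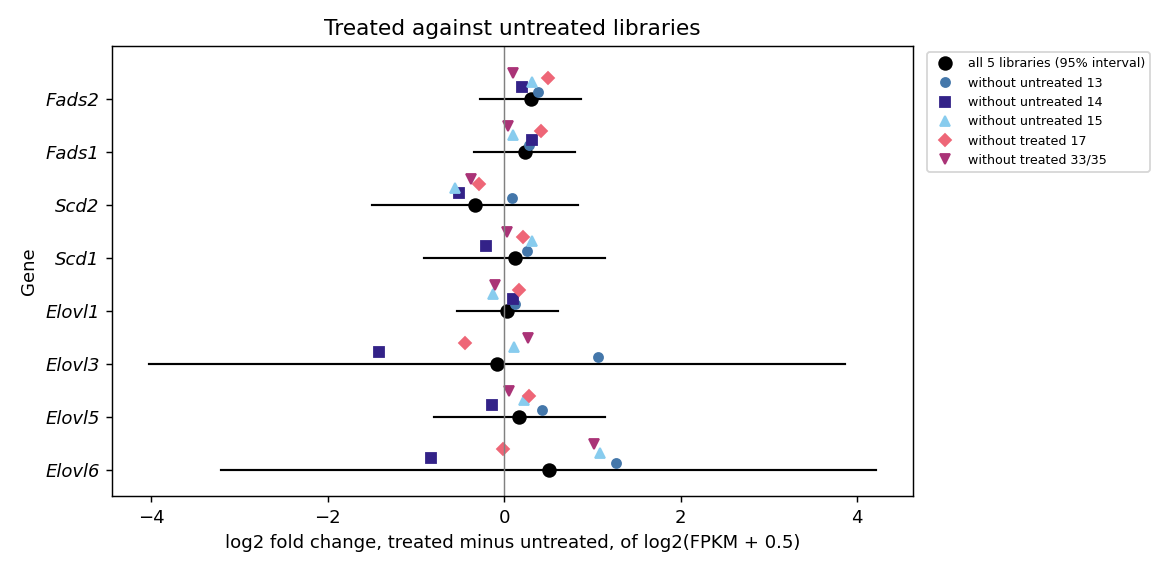
Log2 fold change of each tested member, treated minus untreated, on log2(FPKM + 0.5). Black points and lines give the fit on all 5 libraries with its 95% interval, and coloured marks the fit without each library in turn. Elovl3 runs from -1.42 without untreated 14 to 1.06 without untreated 13, and every interval spans 0.

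Direction turned on single libraries for several members. When untreated 14, richest in muscle markers, was left out, the log2 fold change was -1.42 for Elovl3 (limma, SE 0.71, adjusted p = 0.490), -0.84 for Elovl6 (limma, SE 0.38, adjusted p = 0.463) and -0.21 for Scd1 (limma, SE 0.12, adjusted p = 0.549). That fit called 106 genes higher and 8 lower, of which 0 were members, and its untreated side held almost no muscle marker transcripts while both treated libraries did. There the drug and the muscle share cannot be told apart. Without untreated 13, Elovl3 turned to 1.06 and Scd2 to 0.08. Without treated 17, Elovl6 was at -0.01.

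The 2 members below the filter were read from the fit without one. Elovl4 measured 0.2, 0.241 and 0.308 FPKM in untreated libraries 13, 14 and 15, against 0.325 and 0.432 FPKM in treated libraries 17 and 33/35, the one member whose groups did not overlap. Its log2 fold change was 0.23 (limma, SE 0.12, adjusted p = 1). Of the tested genes, to which Elovl4 does not belong, 5.50% had both treated values above all untreated values. That share was not counted among genes below the filter. Elovl7 ran from 0.0174 to 0.104 FPKM with overlapping groups and a log2 fold change of -0.02. Read depth at such values is not known.

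Relatives outside the set gave little more in this comparison. Of 7 relatives, 6 were tested and 0 were called. All 6 had a higher treated mean on the log2 scale, beside 8704 of all 13527 tested genes. Without untreated 14, 5 were higher and 1 lower, beside 7086 and 6427 of all tested genes. Scd3 measured 18.7, 8.73 and 22.9 FPKM in untreated libraries 13, 14 and 15, against 23.6 and 25.9 FPKM in treated libraries 17 and 33/35, both treated values being the highest, with a log2 fold change of 0.65 (limma, SE 0.44, adjusted p = 1). Scd3 was 0.496% to 0.834% of Scd1 in every library, and 4.77% of the 50-base stretches of its transcripts also occur in Scd1. How the quantification split such reads is not known, so the level of Scd3, and of Scd4 at 1.92 to 5.83 FPKM, is uncertain. Degs2, a ceramide desaturase and hydroxylase, was also above in both treated libraries (1.23 and 1.28 FPKM against 0.844 to 1.06 FPKM). Among all tested genes 5.50% had both treated values above all untreated values. Fads3 (17.7 to 31.9 FPKM) and Fads6 (0.373 to 5.86 FPKM) were highest in untreated 14, Degs1 was steady at 32.5 to 40.2 FPKM, and Elovl2 stayed at or below 0.103 FPKM.

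In the lists around the pathway, limma called 0 of the tested genes. Among 7 tested cycle partners 3 had higher and 4 lower treated means on the log2 scale, among 5 electron donors 4 and 1, among 8 supply genes 7 and 1, and among 13 regulators 8 and 5. The median log2 differences were -0.01, 0.12, 0.17 and 0.10 in that order. Of all 13527 tested genes, 8704 were higher and 4823 lower, with a median of 0.06. Without untreated 14, 0 supply genes were higher and 8 lower, with a median of -0.55, and 3 regulators were higher and 10 lower, beside 7086 higher and 6427 lower of all tested genes. In the same libraries adipocyte identity genes were 4 higher and 16 lower (median -0.16), fibroblast markers 7 higher and 0 lower (median 0.68), and macrophage markers 9 higher and 0 lower (median 0.23). The brown adipocyte markers, which include Elovl3, were 1 higher and 11 lower (median -0.32), and the part of these cell types in the counts was not tested. Ppargc1a, a coactivator of mitochondrial genes singled out after its values were seen, was the one of the 13 regulators with both treated values below all untreated values (13.1 and 12.7 against 15.0 to 19.9 FPKM). Its log2 fold change was -0.37 (limma, SE 0.18, adjusted p = 1). Of all tested genes, 3.18% had both treated values below all untreated values in this way.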

How the data were processed

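For each sample the authors deposited a table of FPKM (transcript abundance scaled to length and depth) over 45320 Ensembl identifiers, per the file headers. The submitters' processing notes name CASAVA 1.7 and GRCm38. Aligner, quantifier and annotation release: not given in the sources used here. Read totals and strand setting are unknown. GENCODE M21 (GRCm38) gave symbols and coordinates for 44395 identifiers, all 10 members included. Promoter sequences came from RefSeq, GRCm38.p6.

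The values of 33 and 35 were identical, so both entered as 1 library. Genes averaging at least 1 FPKM (13527) were compared on log2(FPKM + 0.5) with limma 3.58.1 in R 4.3.3, with a variance trend, 3 residual degrees of freedom and two-sided p-values under Benjamini-Hochberg adjustment at 0.05. Ratios of 2 members were compared by exact permutation. The fit was tested on simulated data for this comparison, with 200 of 13527 genes changed. It recovered 0% of them at a log2 change of 1, 51.5% at 2 and 81.5% at 4. Unchanged genes called were 0, 11 and 6 in that order. The simulated noise was independent for each gene, with the same spread in both groups. It held no library that stood apart in many genes at once, as untreated 14 did. These rates may therefore not hold for the real comparison. Alternatives covered pseudocount, filter, scaling, variance model, sample weights, muscle covariates, the identical samples counted separately and each library left out. The counts of lists without untreated 14 were added after seeing the data.

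The members and lists were chosen with earlier results of these data known. Named were all members, the 7 relatives, the pair with the widest spread in each list of partners, donors, supply genes and regulators, and the 5 genes nearest in profile to Elovl3 and Scd1. Fasn, Thrsp, Srebf1, Mlxipl, Hacd1, Ppargc1a, Pitx3, the neighbours of Elovl6 and single marker genes were picked after their values were seen. Counting and plotting used Python 3.11.15 (numpy 2.4.6, pandas 2.3.3, matplotlib 3.10.9).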

Additional observations from a re-analysis of the deposited data

How the results depend on the processing

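No paired analysis was possible because the groups share no sample numbers. The 8 tested members and the 3 ratios gave 167 values under other settings, of which 143 kept their direction and their side of the threshold, 23 changed direction and 1 passed the threshold. Fads2 left the test under the filter of 5 FPKM and kept its direction in the other 17 settings.

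The count of genes called higher, 4, became 0 with a pseudocount of 0.1, 0 with no filter on low values, 0 with the filter of 5 FPKM, 0 with centring on the adipocyte list, 7 with sample weights, 7 with the identical samples counted separately, 1455 with the mean log2 muscle covariate and 263 with the summed FPKM muscle covariate. The count called lower, 2, became 0 with no filter, 1 with the filter of 5 FPKM, 0 with centring on the adipocyte list, 3 with sample weights, 517 with the mean log2 covariate and 8 with the summed covariate. Leaving out each library in turn gave 0 to 106 higher and 0 to 8 lower, both highest without untreated 14. With the mean log2 muscle covariate 1 member, Scd1, was called higher. The cause was not tested.

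Log2 fold changes changed direction as follows, and the cause was not tested. Elovl3 was 0.059 with a pseudocount of 0.1 and 1.61 with the mean log2 covariate. Elovl1 was -0.065 with quantile normalization, -0.079 with median centring, -0.24 with adipocyte centring and -0.043 with the mean log2 covariate. Adipocyte centring gave -0.10 for Elovl5, -0.15 for Scd1 and -0.041 for Fads1. Sample weights, which put untreated 14 at 0.0982, gave -0.19 for Elovl5, -0.80 for Elovl6 and -0.17 for Scd1. Leaving out each library in turn gave -0.12 to 0.17 for Elovl1, -1.42 to 1.06 for Elovl3, -0.14 to 0.43 for Elovl5, -0.84 to 1.26 for Elovl6, -0.21 to 0.31 for Scd1, -0.56 to 0.082 for Scd2, and -0.22 to 0.11 for the log2 ratio of Fads1 to Fads2. The FPKM tables give no read depth, so counting error at low levels is unknown.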
